A study of Mus musculus with 32 samples.

Results

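Hepatocyte transcripts were followed through 32 RNA sequencing libraries of sorted mouse blood progenitors, in 9 groups. The transcripts are those of 10 genes named by symbol: Alb, Apoa1, Ttr, Apoh, F12, Ambp, Afp, Trf, Fgb and Apoa2. By symbol, 9 of the 10 matched a row of the 27728 genes in the count table and are called the members below. The expression of Afp was not analysed here. The members were chosen for their known expression in hepatocytes, and no measured value entered the rule, but they were chosen with earlier results of these data known.

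The sort took progenitors that lack lineage markers and Sca1 and carry cKit, from fetal liver of stage E14.5 (15 libraries) or from adult bone marrow (17 libraries). The study varied U2af1, which encodes a splicing factor that recognises the end of introns. All fetal groups were untreated, and the labels placed each fetal library in batch A or batch B. Batch A held the flox control, which is U2af1(flox/flox) with no Cre (replicates 3, 4 and 5), Vav1-Cre/U2af1(wt/flox) embryos (heterozygous, replicates 3, 4 and 5), Vav1-Cre/U2af1(flox/flox) embryos (homozygous, replicates 2, 3 and 4) and 1 library of embryos labelled Vav1-Cre alone. Batch B held the other Vav1-Cre library and 4 libraries of Vav1-Cre/U2af1(wt/S34F) embryos, where S34F is a substitution in the protein. Vav1-Cre is active in blood cells and also in endothelium, so hepatocytes of these embryos are not its target. The adult mice all carried Mx1-Cre, rTA and tgU2AF1(WT), a wild-type U2AF1 transgene. In 3 adult groups U2af1 was flox/S34F, and the mice received pIpC, which induces Mx1-Cre, and doxycycline. The doxycycline dose was 1250 ppm in 4 libraries, 2500 ppm in 6 and 10000 ppm in 4. Mx1-Cre is an interferon-induced driver that is not limited to blood cells. The adult control had U2af1(wt/wt) and was untreated (n = 3), so genotype, pIpC and doxycycline differ from the dosed groups at once. The labels do not say whether replicates of a group came from separate animals, and p-values measure the spread between these libraries, which may be technical.

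Fetal liver is the main site of blood formation at this stage, and blood progenitors lie there among hepatoblasts and young hepatocytes. Hepatocytes make most proteins of blood plasma, and albumin is the most abundant of these. Messenger RNA of such secreted proteins is used as a sign of liver cells, because blood progenitors are not known to make albumin or fibrinogen. Adult marrow holds no hepatocytes. In bulk RNA, fewer cells of a type and less RNA per cell cannot be told apart, and neither can whole hepatocytes from free RNA carried along with the sorted cells.

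The members fall into 4 roles. The carriers of plasma are albumin (Alb), which binds fatty acids and many drugs, transthyretin (Ttr), which carries thyroxine and retinol-binding protein, and transferrin (Trf), which carries iron. Among the proteins of lipoproteins are Apoa1 and Apoa2, the main proteins of high-density lipoprotein, and Apoh, or beta-2-glycoprotein I, which binds phospholipid. Coagulation is represented by F12, the Hageman factor of the contact pathway, and Fgb, the beta chain of fibrinogen. Ambp encodes a precursor that is cleaved to alpha-1-microglobulin and bikunin. All 9 are protein-coding in GENCODE M21 on GRCm38. Alb lies on the plus strand of chromosome 5 at 90460897 to 90476602. Apoa1 is on chromosome 9 at 46228580 to 46230466 (plus), Trf on chromosome 9 at 103204001 to 103230444 (minus), Apoh on chromosome 11 at 108343354 to 108414396 (plus) and F12 on chromosome 13 at 55417958 to 55426793 (minus). Ambp is on chromosome 4 at 63143275 to 63154799 (minus), Fgb on chromosome 3 at 83040141 to 83049863 (minus) and Apoa2 on chromosome 1 at 171225054 to 171226379 (plus). The counts of Apoh and Trf are uncertain, since Apoh overlaps Gm11656 on its own strand and Prkca on the other, and Trf overlaps Gm20425 on its own strand. The other 7 members overlap no annotated gene.

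Most members moved together between fetal libraries, so their promoters were compared for letters of the liver transcription factors HNF1, HNF4 and FOXA. RefSeq promoter windows of GRCm38.p6, from 250 bases before to 50 bases after a start listed for the gene, were matched for 8 of the 10 named genes, in 9 windows because Apoa2 has 2. These are RefSeq starts, which differ from the GENCODE gene ends given above: the Ambp window lies inside the GENCODE gene, as does that of Apoh. The windows of Alb and Fgb are shown because both hold the short HNF1 motif GTTAAT. That of Ambp is shown because it holds none of the 4 motifs searched and Ambp behaved differently from Alb in adult marrow. The windows of Apoa1 and F12 also held none of the 4. In the fetal libraries Apoa1 followed the other members most closely (Pearson's r = 0.98, described below) and F12 least closely (0.80). Over all adult libraries Ambp, Apoa1 and F12 had 689, 47 and 40 counts, and Alb, Fgb and Apoh had 0. Apoa2, whose windows hold an HNF4 and a FOXA match, had 417 counts there. A link between these motifs and the levels was not tested. Capitals mark GTTAAT or its reverse complement. The windows are chr5:90460620-90460919 (plus strand), chr3:83049814-83050113 (minus strand) and chr4:63154123-63154422 (minus strand), each printed 5′ to 3′ along its gene.
Alb: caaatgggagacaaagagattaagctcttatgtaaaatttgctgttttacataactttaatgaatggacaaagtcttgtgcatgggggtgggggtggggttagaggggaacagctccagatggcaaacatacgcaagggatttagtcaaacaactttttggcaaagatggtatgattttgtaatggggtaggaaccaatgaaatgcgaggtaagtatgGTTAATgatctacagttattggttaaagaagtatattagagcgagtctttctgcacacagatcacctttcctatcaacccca
Fgb: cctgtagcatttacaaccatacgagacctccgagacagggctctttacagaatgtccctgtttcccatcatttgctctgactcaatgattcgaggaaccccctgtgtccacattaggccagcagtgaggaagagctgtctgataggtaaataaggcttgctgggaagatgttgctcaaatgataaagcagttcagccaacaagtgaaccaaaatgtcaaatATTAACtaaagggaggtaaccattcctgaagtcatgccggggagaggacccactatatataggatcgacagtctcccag
Ambp: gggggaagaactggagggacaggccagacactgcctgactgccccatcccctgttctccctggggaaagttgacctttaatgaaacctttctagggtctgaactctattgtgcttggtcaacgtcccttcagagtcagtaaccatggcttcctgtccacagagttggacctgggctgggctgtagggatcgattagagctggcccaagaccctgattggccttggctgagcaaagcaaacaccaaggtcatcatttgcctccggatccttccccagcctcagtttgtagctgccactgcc
On both strands, GTTAAT was found in 3 of the 9 windows (33.3%), those of Alb, Fgb and Afp. It was found in 18 of 59 windows (30.5%) of other hepatocyte genes and in 2332 of all 32851 windows (7.10%). The longer HNF1 form GTTAATNAT, which overlaps the short one and was allowed 1 mismatch, was found in 4 of 9, 25 of 59 (42.4%) and 13.1% of all windows. CAAAGTCCA, an HNF4 core with 1 mismatch allowed, was found in 2 of 9, 9 of 59 (15.3%) and 8.47% of all. TGTTTAC, the FOXA motif, was found in 2 of 9, 4 of 59 (6.78%) and 3.65% of all. The short HNF1 motif lies at position -32 of Alb and -29 of Fgb, counted from the RefSeq start. A match describes letters in a window and is not shown to be a bound site.

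Libraries held 26588099 to 71251200 counts. Values are in counts-per-million (CPM) after TMM scaling, which corrects library sizes for differences in composition. The progenitor genes Mpo and Kit were high in all libraries. Mpo, the myeloperoxidase of granulocyte precursors, averaged 15270 CPM in the flox control and 30050 CPM in the adult control. Kit, the sorting marker, averaged 542 and 568 CPM. In the homozygous group Kit was at 287 ± 43.9 CPM (SD, n = 3). Other listed progenitor genes also differed there. Flt3 and Cd34 averaged 13.7 and 283 CPM, beside 68.5 and 451 CPM in the flox control. Gata2 and Elane were higher, at 521 and 1740 CPM beside 273 and 1043 CPM. Ly6a, which encodes Sca1, and U2af1 itself were not analysed here. Within their group, flox control replicates 4 and 5 stood apart from replicate 3 in the members, and the tests against the flox control are given with replicate 3 alone as well. Counts carry no molecular identifiers, so intervals cover counting error only.

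All 9 members had counts in the 3 flox control libraries, and together they made up 0.00818%, 0.0518% and 0.0335% of the counts in replicates 3, 4 and 5. Albumin led. Alb had 45.3, 331 and 211 CPM in these libraries. It had 55.9, 22 and 21.7 CPM in heterozygous replicates 3, 4 and 5, and 11.2, 5.23 and 2.27 CPM in homozygous replicates 2, 3 and 4. The homozygous libraries were below all others of batch A, whereas the highest heterozygous library was above the lowest flox control. The Vav1-Cre library of batch A had 69.9 CPM, inside the range of the flox control. In batch B, Alb had 9.17 CPM in the Vav1-Cre library and 10, 16.4, 14.1 and 25.1 CPM in the 4 S34F libraries. In all 17 adult libraries Alb had 0 counts, where 3 counts in a library would be 0.0429 to 0.0922 CPM.

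The order of the group means for Alb was flox control (196 ± 144 CPM, SD, n = 3), Vav1-Cre (39.5 ± 42.9, n = 2), heterozygous (33.2 ± 19.7, n = 3), S34F (16.4 ± 6.37, n = 4), homozygous (6.23 ± 4.54, n = 3) and then the 4 adult groups at 0 counts. Neighbours in this order overlapped from the flox control down to the homozygous group, in that the highest library of each lower group was above the lowest library of the one before it. Only the step from the homozygous group to the adult groups had no overlap. The mean of the Vav1-Cre pair joins both batches, whose libraries differed 7.63-fold.

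**Figure D1:**
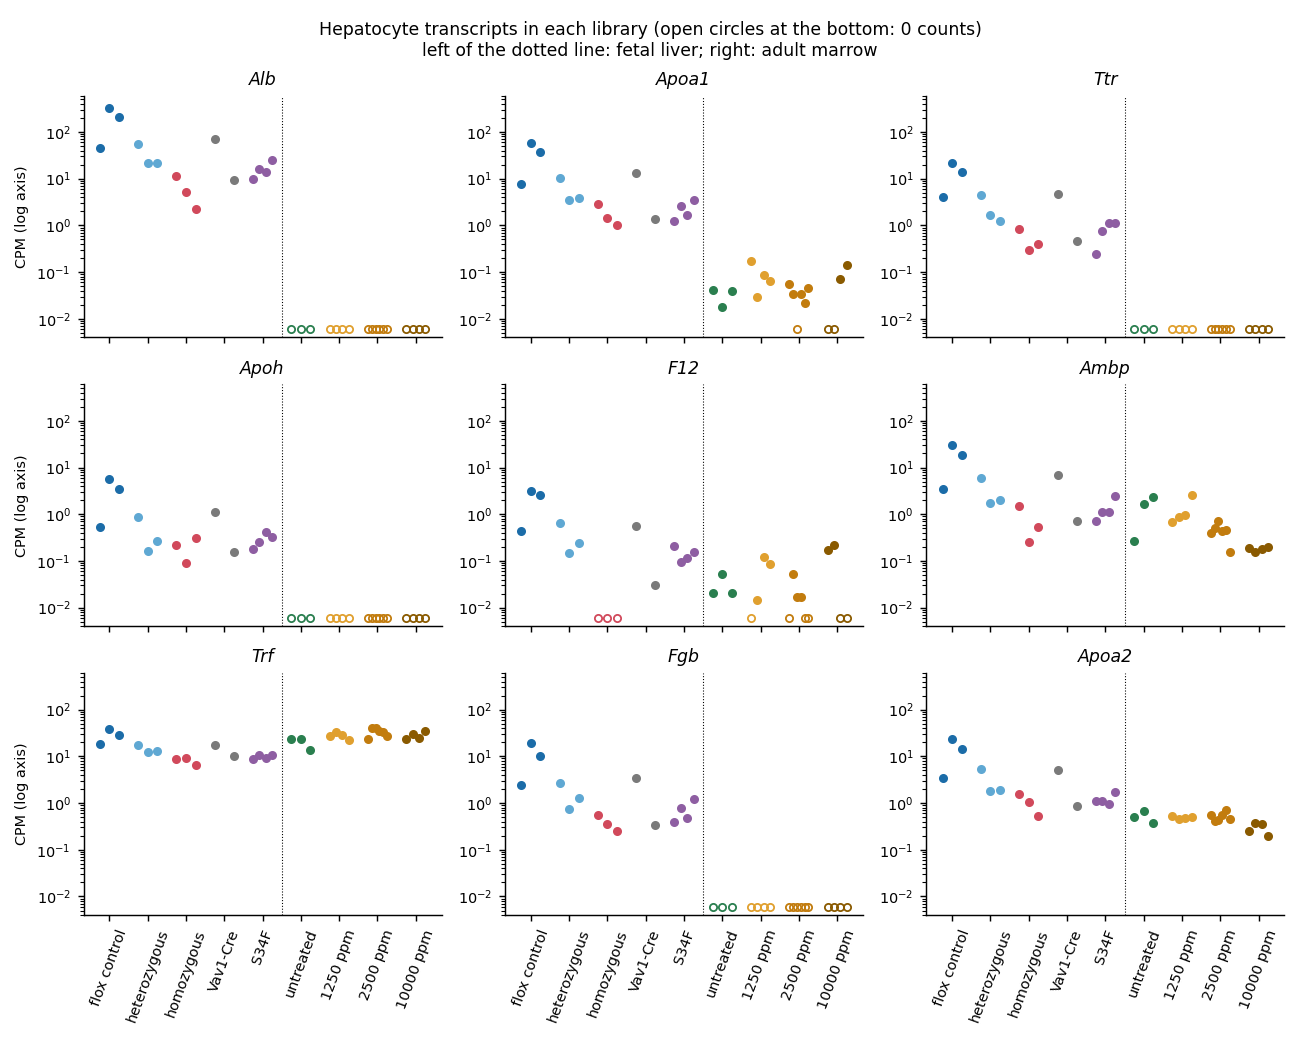
Level of each member in CPM (log axis) in every library, by group, with open circles at the bottom for libraries at 0 counts; fetal liver is left of the dotted line and adult marrow right of it. Alb, Ttr, Apoh and Fgb have counts in all 15 fetal libraries and 0 counts in all 17 adult libraries, while Trf stays between 6.63 and 41.1 CPM throughout.

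The other carriers differed from each other. Ttr (chromosome 18, 20665280 to 20674321, plus strand) followed Alb at a lower level, with 3.97, 21.7 and 14.2 CPM in the flox control replicates 3, 4 and 5, 4.38, 1.65 and 1.25 CPM in the heterozygous libraries and 0.847, 0.303 and 0.405 CPM in the homozygous ones. Trf had 18.2, 38 and 28.6 CPM in the flox control, 17.4, 12.6 and 12.9 CPM in the heterozygous group and 8.62, 9.21 and 6.63 CPM in the homozygous group. These 3 groups did not overlap for Trf, and its range over the 15 fetal libraries was 5.74-fold, against 146-fold for Alb. In adult marrow Trf had 13.7 to 41.1 CPM, within or above its fetal range. Ambp, Apoa2 and F12 also overlapped between the tissues.

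The lipoprotein genes Apoa1 and Apoa2 came next after Alb per length. Per kilobase of exon, the mean level in the flox control was 83.6 CPM for Alb, 27.2 for Apoa1 and 26 for Apoa2, then 12.3 for Ambp, 11.2 for Ttr and 8.52 for Trf, and 2.79 or less for Fgb, Apoh and F12. On the same scale Trf led the adult control at 6.05, above Ambp at 1.03 and Apoa2 at 0.957. Apoa1 had 7.74, 56.8 and 36.5 CPM in the flox control libraries, 10.2, 3.48 and 3.88 in the heterozygous and 2.91, 1.41 and 0.996 in the homozygous ones. Apoa2 had 3.41, 23.8 and 14.7 CPM, then 5.41, 1.83 and 1.90, then 1.54, 1.04 and 0.529 CPM in the same order. For both genes the heterozygous range overlapped the flox control and the homozygous range lay below both. Apoh was low, at 0.521, 5.59 and 3.39 CPM in flox control libraries, 0.852, 0.165 and 0.261 in heterozygous and 0.217, 0.0893 and 0.311 in homozygous ones, where it rested on 5 to 10 counts.

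Both coagulation members and Ambp kept the same order. Fgb had 2.42, 19.4 and 10.1 CPM in flox control libraries, 2.69, 0.765 and 1.29 in heterozygous and 0.565, 0.357 and 0.249 in homozygous ones. F12 had 0.427, 3.15 and 2.64 CPM, then 0.643, 0.150 and 0.248 CPM, and 0 counts in all 3 homozygous libraries. Ambp had 3.51, 29.9 and 18.5 CPM, then 5.84, 1.73 and 1.97 CPM, then 1.52, 0.250 and 0.529 CPM. In the flox control every member was lowest in replicate 3 and highest in replicate 4, and in the heterozygous group every member was highest in replicate 3.

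Homozygous libraries were compared with the flox control in 1 model of the 9 libraries of these 3 genotypes in batch A, using the quasi-likelihood test of edgeR and p-values adjusted over all 12678 genes tested by the Benjamini-Hochberg method. All 9 members with a row passed the filter on low counts, and all 9 were lower in the homozygous group at an adjusted p under 0.05. Among all genes tested, 22.4% were called lower. The groups did not overlap for any of the 9, but the share of all genes without overlap was not counted in any comparison here. Alb was lower by a log2 fold change of -4.98 ± 0.77 (SE, adjusted p = 0.000624), which is 31.4-fold between the group means. Trf had the smallest change, -1.82 ± 0.24 (adjusted p = 0.000254), or 3.47-fold. The other changes were -4.71 ± 0.72 for Ttr, -4.76 ± 0.77 for Fgb, -4.53 ± 0.87 for Ambp, -4.26 ± 0.73 for Apoa1, -4.03 ± 0.91 for Apoh and -3.75 ± 0.70 for Apoa2, with adjusted p from 0.000595 to 0.00511. F12, at 0 counts in the homozygous group, was at least 29.3-fold lower when 3 counts per library are set as the floor. F12 passed the filter only through the other groups, so its direction was fixed by the filter. The median over the members was -4.53, also with F12 at its bound, beside -0.018 over all genes. With flox control replicate 3 alone as the control, 6 of the 9 were called, beside 11.9% of all genes called lower, and Alb changed by -2.87 (adjusted p = 0.00561). Apoh (-1.42, adjusted p = 0.304), Ambp (-2.22, 0.0625) and Apoa2 (-1.73, 0.0626) were then no longer called.

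Heterozygous libraries did not differ from the flox control at the threshold. In edgeR's quasi-likelihood test 0 of the 9 members passed, while 9 of 9 had an unadjusted p under 0.05 and DESeq2 called 2. Of all 12678 genes tested, 0.0316% were called by edgeR and 1120 had an unadjusted p under 0.05 in the same test. Every member had a lower mean in the heterozygous group, from -0.96 ± 0.23 (SE, adjusted p = 0.353) for Trf to -2.89 ± 0.81 (adjusted p = 0.358) for Apoh, with Alb at -2.55 ± 0.67 (adjusted p = 0.356). Only Trf had groups that did not overlap. The outcome rested on 1 library: without flox control replicate 3, all 9 members were called, and with replicate 3 as the only flox control 0 were. All 9 were also called with no filter on low counts. Of all genes, 0 to 269 were called when a library was left out and 0 to 230 under the other settings.

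Between the homozygous and the heterozygous group, 4 of the 9 members were lower by the same test, beside 22.4% of all genes called lower. These were Alb (-2.43 ± 0.72, SE, adjusted p = 0.0191), Ttr (-2.26 ± 0.70, adjusted p = 0.0245), Trf (-0.86 ± 0.24, adjusted p = 0.0146) and F12, which was at least 4.91-fold lower (adjusted p = 0.013). The direction of F12 was again fixed by the filter. Fgb (-2.03, adjusted p = 0.0501), Apoa1 (-1.74, 0.0668), Ambp (-2.09, 0.0681), Apoa2 (-1.56, 0.0881) and Apoh (-1.14, 0.357) did not pass. The groups did not overlap for 8 members, all but Apoh, again with no share over all genes counted. The count fell to 1 without heterozygous replicate 3 or without homozygous replicate 4, and to 2 without homozygous replicate 3. All 3 comparisons within batch A share libraries, so they are not independent of each other.

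S34F libraries had only 1 control library in their batch, so no test was made. Of the 8 members with a mean of at least 10 counts, 0 were at least 2-fold apart from it in each of the 4 S34F libraries and in 1 direction, beside 1.01% of genes. The log2 ratio to the control was 0.13, 0.84, 0.62 and 1.45 for Alb and -0.26, 0.03, -0.16 and 0.05 for Trf in S34F replicates 1 to 4. Ttr ran from -0.79 to 1.23 and Apoa1 from -0.14 to 1.32. S34F replicate 4 was the highest of the 4 for Alb, Apoa1, Ambp, Trf, Fgb and Apoa2. The summed level of the members was 22.7 to 46.2 CPM in S34F and 23.4 CPM in the control of batch B, and 122 CPM in the Vav1-Cre library of batch A.

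**Figure D2:**
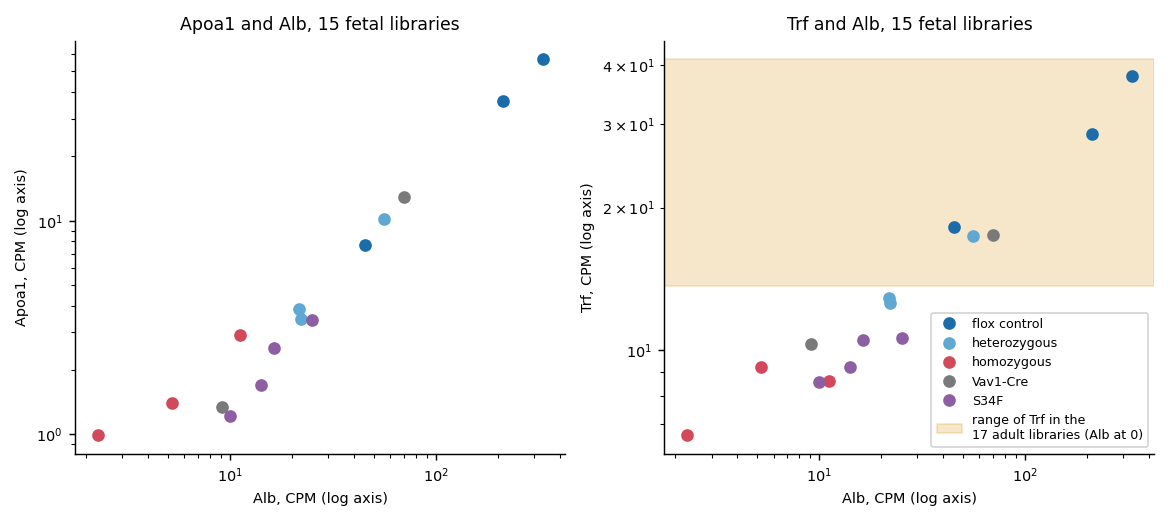
Apoa1 (left) and Trf (right) against Alb in the 15 fetal libraries, in CPM on log axes, each point 1 library; the band marks the range of Trf in the 17 adult libraries, in which Alb is at 0 counts. Apoa1 runs along with Alb over the whole range, while Trf lies between 6.63 and 10.6 CPM in the homozygous and S34F libraries, with Alb at or under 25.1 CPM. Heterozygous replicates 4 and 5 also have Alb in that range (22 and 21.7 CPM) but Trf at 12.6 and 12.9 CPM.

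The proportions of the members to each other were then set side by side, as counts per 100 Alb counts of the same library. This measure does not depend on library size or scaling. Apoa1 stood at 17.1, 17.1 and 17.3 per 100 Alb counts in the 3 flox control libraries, although their Alb levels differed 7.32-fold. In the heterozygous libraries it was 18.2, 15.8 and 17.9, and in the Vav1-Cre library of batch A 18.5. All 5 libraries of batch B were between 12.1 and 15.4. In homozygous replicates 2, 3 and 4 it was 26 (95% exact interval 21.4 to 31.5), 27 (20.8 to 34.7) and 43.8 (28 to 67.3). Each homozygous library was above all 12 other fetal libraries, whose highest value was 18.5 (17 to 20.1), and each of the 3 intervals began above 20.3, the highest upper bound among the 12.

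Apoa2 was also highest in the homozygous libraries, though less clearly. It stood at 7.54, 7.18 and 6.98 per 100 Alb counts in the flox control, 8.31 to 9.67 in the heterozygous group and 6.64 to 11 in S34F, and at 13.8 (10.6 to 17.7), 19.8 (14.7 to 26.3) and 23.3 (12.9 to 39.9) in the homozygous libraries. These intervals overlapped those of some others, such as the Vav1-Cre library of batch B at 9.67 (6.36 to 14.2). In the homozygous libraries Apoa2 had 0.529 to 1.54 CPM, and adult libraries, with Alb at 0 counts, had 0.196 to 0.725 CPM. The part of an Apoa2 level that does not go with Alb in this proportion was not tested. Fgb ran from 3.33 to 5.97 over the 12 other fetal libraries and from 5.05 to 11 in the homozygous group, so the ranges overlapped. Ambp also overlapped, at 6.64 to 10.4 and at 4.78 to 23.3. Ttr was 5.78 to 8.76 in batch A without the homozygous libraries, 2.44 to 8.12 in batch B and 5.80 to 17.8 in the homozygous group. F12 was 0.333 to 2.13 in the 12 others and at 0 counts in the homozygous group, which allows up to 0.719, 1.27 and 5.18 in its replicates 2, 3 and 4 (upper 95% bounds). Apoh reached 13.7 (6.31 to 26.7) in homozygous replicate 4, from 10 counts beside 73 of Alb, and was 0.749 to 2.92 in the 12 others. These differences were seen in the data and then described, and no test of them was made.

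Trf did not keep a fixed proportion to Alb. It stood at 40.3, 11.5 and 13.6 per 100 Alb counts in the flox control, at 31.1 to 59.8 in the heterozygous group, at 42.4 to 85.7 in S34F and at 77.1, 176 and 292 in the homozygous group. Because Trf varied far less than Alb, this proportion mostly follows the Alb level in its denominator.

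**Figure D3:**
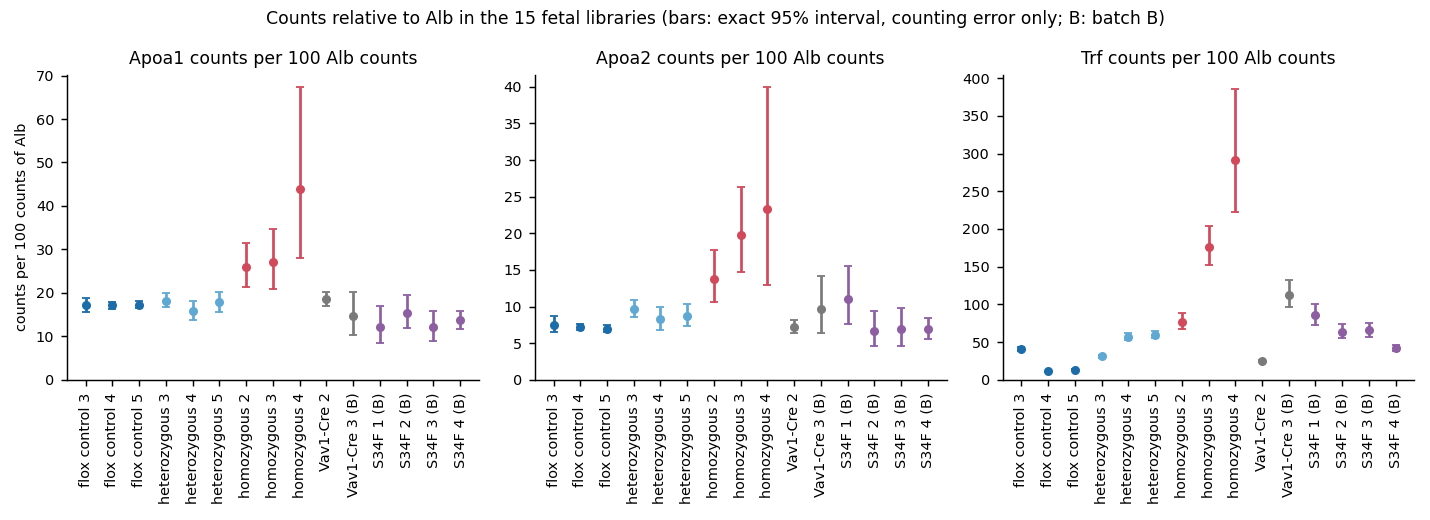
Counts of Apoa1, Apoa2 and Trf per 100 Alb counts in each of the 15 fetal libraries, with exact 95% intervals for counting error. The 3 homozygous libraries (26 to 43.8 for Apoa1, 13.8 to 23.3 for Apoa2) are above the 12 others (12.1 to 18.5 and 6.64 to 11), and Trf spans 11.5 to 292.

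Over the 13 fetal libraries in groups of 3 or more, each member's deviation from its group mean on the log2 scale (prior count 2) was compared with the mean of the other members. Pearson's r was 0.80 to 0.98, highest for Apoa1 and lowest for F12. The same was done for 9629 other genes against the mean of all 9 members. The 15 genes most alike were Reln (0.977), Cfi (0.968), Abcg2 (0.964), Serpinf2 (0.954), Gpr155 (0.95), Rbp4 (0.948), Epb41 (0.946), Xrcc5 (0.942), Fn1 (0.940), Vtn (0.935), H19 (0.934), Fam213a (0.933), Bag2 (0.931), Dynll2 (0.931) and Fga (0.930). Serpinf2, Rbp4, Vtn and Fga are among the other hepatocyte genes listed, Cfi is complement factor I, a plasma protease, and H19 is an imprinted RNA that is high in fetal liver. Reln, an extracellular matrix protein, averaged 17.1 CPM in the flox control, 2.96 in the homozygous group and 0.0305 in the adult control. By contrast Xrcc5, a DNA repair protein, averaged 34.4 CPM in the flox control, 28.9 in the homozygous group and 31.5 in the adult control. The median r was 0.81 over 25 other hepatocyte genes and 0.05 over all genes ranked. Without the 3 flox control libraries (10 libraries), r was 0.50 to 0.95 for the members, and the medians were 0.69 over 17 other hepatocyte genes and 0.18 over all. For the 14 of the 15 genes that were ranked, all but Cfi, r was 0.85 to 0.95. They were picked for a high r over 13 libraries that include these 10, so this is no separate check of them. Over the 13 libraries the median was 0.66 for the erythroid list, 0.78 for endothelium, 0.34 for macrophages and -0.01 for mesenchyme. Without the flox control libraries these medians were 0.75, 0.80, 0.40 and -0.49. The erythroid and endothelial medians were then above the 0.69 of the other hepatocyte genes. The points share libraries and their depths, and r is given as a description.

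A list of 62 other hepatocyte genes was described beside the members, of which 54 had a row. In the homozygous group 34 of the 40 that passed the filter were lower than in the flox control and 2 were higher. The median log2 fold change was -4.08. It was -3.96 with the 3 genes at 3 counts or fewer in every homozygous library set at their bound. Apob, the structural protein of very-low-density lipoprotein, went from 49.4 ± 38.7 to 1.21 ± 1.37 CPM (SD, n = 3, log2 fold change -5.33 ± 0.94, SE, edgeR adjusted p = 0.00128). Ahsg, or fetuin-A, went from 20.9 ± 14.4 to 0.445 ± 0.495 CPM (-5.49 ± 0.86, adjusted p = 0.000674). The other fibrinogen chains Fga and Fgg changed by -4.43 ± 0.80 and -4.19 ± 0.81, close to Fgb. The 2 genes that rose were Hp, or haptoglobin (0.50 ± 0.17, adjusted p = 0.0427), and F10, or coagulation factor X (0.78 ± 0.18, adjusted p = 0.00618). With flox control replicate 3 alone, 13 of the 40 were lower and 1 higher (Fah), with a median of -1.77, beside 11.9% of all genes called lower and 7.67% higher. Apob (-3.03, adjusted p = 0.0239) and Ahsg (-3.94, 0.00791) stayed called, whereas Fgg (-2.10, 0.0821), Hp (0.11, 0.704) and F10 (0.49, 0.155) did not. With all 3 flox control libraries, F5 (-0.04, adjusted p = 0.816), Fah (0.71, 0.0791), Hnf4a (-0.66, 0.0527) and Foxa1 (-0.93, 0.384) did not pass. Hp, F5 and F10 were also among the listed genes with the highest levels in adult marrow, at 703, 110 and 64.1 CPM in the adult control.

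Between the heterozygous group and the flox control 0 of the 40 listed hepatocyte genes were called, with a median of -2.28, beside -2.52 over the members and 0.0014 over all genes. With flox control replicate 3 alone these medians were -0.25 and -0.33, and 0 of either list were called. Between the homozygous and heterozygous groups 12 were lower and 3 higher (Hp, F10 and Fah), beside 22.4% and 19.8% of all genes, with a median of -1.72 (-1.56 with 3 genes at their bound), beside -2.03 over the members.

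Markers of other liver cells moved in the same libraries. Of 10 macrophage genes tested, 8 were lower in the homozygous group than in the flox control and 2 (Vcam1 and Slc40a1) were higher, with a median of -3.23. The summed level of the 11 macrophage genes was 150 to 156 CPM in the flox control, 74.6 to 119 in the heterozygous and 84.1 to 127 in the homozygous group. Its largest parts were Slc40a1, Adgre1 and Vcam1, at means of 31.4, 25.8 and 23.6 CPM in the flox control. In the homozygous group these 3 were at 47.3, 13.1 and 34.7 CPM. Cd5l, a marker of tissue macrophages, went from 11.2 ± 1.36 to 0.00724 ± 0.0125 CPM (SD, n = 3). Cd163 was at 0 in all 3 homozygous libraries, but it was also near the floor in the flox control, at 0.0239 to 0.101 CPM. Unlike the members, Cd5l was alike in the 3 flox control libraries, at 9.64 to 12.2 CPM. Of 6 endothelial genes 5 were lower (median -2.62), among them Stab2 (-3.70 ± 0.62, SE, edgeR adjusted p = 0.000953), a scavenger receptor of liver sinusoids. The list summed to 120 to 127, 114 to 122 and 79.3 to 98.8 CPM. Most of this sum was Pecam1, at means of 99.7, 109 and 85.3 CPM, beside 8.39 CPM for Stab2 in the flox control. Pecam1 is not particular to liver here, with a mean of 108 CPM in the adult control. Of 5 erythroid genes 3 were lower (median -1.30), with sums of 486 to 703, 177 to 699 and 288 to 341 CPM. Of 5 mesenchymal genes tested, 1 was lower, Pdgfrb (median -0.15). With flox control replicate 3 alone, the median log2 fold change was -3.14 over the macrophage genes and -1.51 over the endothelial genes. It was -0.85 over the erythroid genes and 1.06 over the mesenchymal genes, beside 0.00095 over all genes. Slc40a1 (0.79) and Vcam1 (0.37) were still higher. The part of these cell types in the members' differences was not tested. In the heterozygous group 0 genes of these 4 lists were called.

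**Figure D4:**
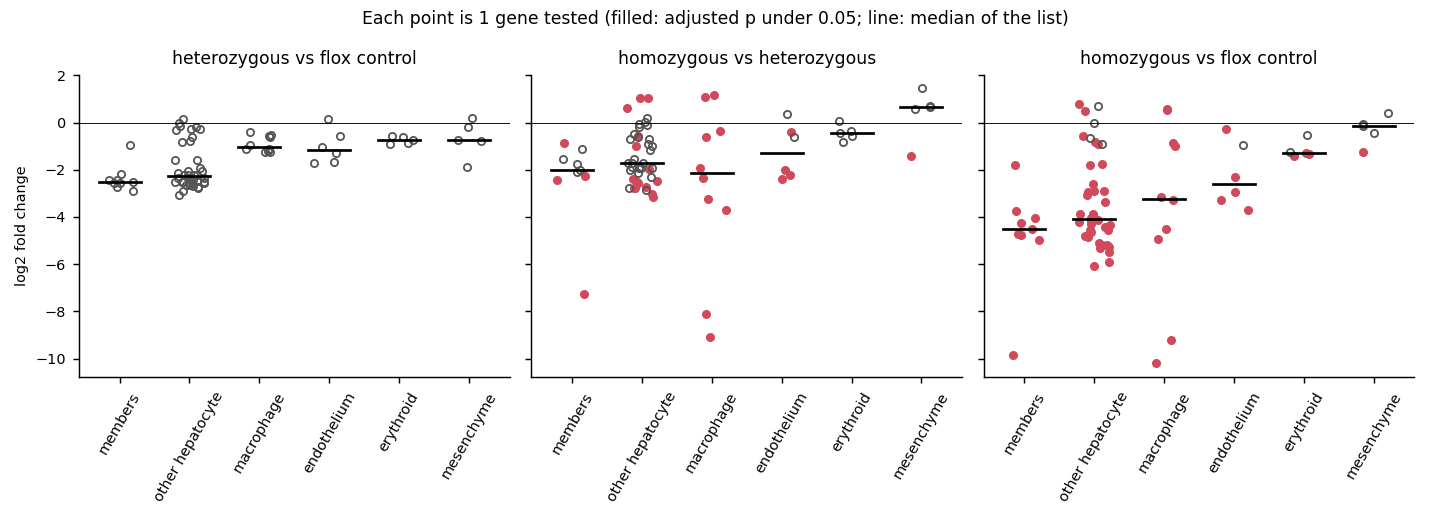
Log2 fold change of each gene tested, by list, for the 3 comparisons within batch A; filled points passed an adjusted p under 0.05 and bars mark the median of a list. All 9 members and 34 of 40 other hepatocyte genes are lower in the homozygous group than in the flox control, while no gene of any list passes between the heterozygous group and the flox control.

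Fetal liver and adult marrow were compared through their controls, the flox control and the adult untreated group. Tissue, age and genotype differ together in this comparison and cannot be told apart. Of the 9 members 8 were higher in the flox control by edgeR's quasi-likelihood test, beside 30.0% of 12256 genes called higher. Alb, Ttr, Apoh, Fgb, Apoa1 and F12 had 0 to 3 counts in each adult control library. They passed the filter on low counts only through the flox control, so their direction was fixed by the filter. Against 0 counts in the adult control, Alb was at least 3330-fold higher, Ttr at least 226-fold, Fgb at least 181-fold and Apoh at least 53.9-fold, with 3 counts per library as the floor. Apoa1 had 5042 counts in the 3 flox control libraries and 5 in the 3 adult control libraries, a ratio of 942 (95% exact interval 403 to 2901) after scaling, and F12 had 316 and 5, a ratio of 59.0 (25 to 183). Apoa2 was higher by 4.74 ± 0.74 on the log2 scale (SE, adjusted p = 0.00178) and Ambp by 3.56 ± 0.95 (adjusted p = 0.0159). Trf did not differ at the threshold (0.48 ± 0.31, adjusted p = 0.223), with 18.2 to 38 CPM in the flox control and 13.7 to 23.4 CPM in the adult control. With flox control replicate 3 alone, the median log2 fold change over the members was 7.79, beside -0.022 over all genes, and that of Ambp was 1.27. The folds were then smaller: at least 770 for Alb, 67.5 for Ttr, 41.1 for Fgb and 8.87 for Apoh, with ratios of 238 (101 to 737) for Apoa1 and 13.1 (4.98 to 43.6) for F12. With all 3 flox control libraries but without adult untreated replicate 2, Ambp was not called (3.68, edgeR adjusted p = 0.0524). Among the other hepatocyte genes 28 of 34 tested were higher and 4 lower (Hp, F5, F10 and Cp), and 15 of the 54 had 0 counts in all adult libraries. Those at 0 counts in the adult control, such as Fga and Fgg, likewise passed the filter only through the flox control. The median log2 fold change of the 34 was 8.4, or 6.9 with flox control replicate 3 alone.

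Summed over the members, the adult libraries had 16.5 to 42.2 CPM, which overlapped the 11.9 to 46.2 CPM of the homozygous and S34F libraries. Trf made up nearly all of it. Without Trf the sum was 0.533 to 3.19 CPM in the 17 adult libraries and 5.29 to 492 CPM in the 15 fetal libraries, with no overlap. What remained in adult marrow was Ambp (5 to 119 counts per library), Apoa2 (11 to 37), Apoa1 (0 to 10) and F12 (0 to 11). Trf, Ambp and Apoa2 thus had counts in all 17 libraries in which Alb, Ttr, Apoh and Fgb had 0, so in adult marrow these 3 did not go with the other hepatocyte transcripts.

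The 3 members with enough counts were tested between the adult groups, in 1 model of all 17 adult libraries over 13338 genes. Ambp had 0.271, 1.68 and 2.39 CPM in the adult control and 0.187, 0.158, 0.182 and 0.196 CPM at 10000 ppm. It had 0.696, 0.889, 0.974 and 2.55 CPM at 1250 ppm, and from 0.159 to 0.724 with a median of 0.454 CPM at 2500 ppm. All 4 libraries at 10000 ppm were below every library of the control and of 1250 ppm. At 10000 ppm against the control, 1 of the 3 members was lower, Ambp, by -2.97 ± 0.62 on the log2 scale (SE, edgeR adjusted p = 0.0346), beside 0.315% of all genes called lower. This call was lost without 10000 ppm replicate 1 (adjusted p = 0.0657) or 2 (0.092), without untreated replicate 2 (0.142) or 3 (0.126), and with only these 2 groups in the fit (0.183). Against 1250 ppm, a group that shares genotype and pIpC, Ambp was lower by -2.79 ± 0.59 (adjusted p = 0.0071), beside 10.6% of genes called lower, and it was called in each alternative in which it was tested. It rests on 5 to 12 counts per library at 10000 ppm.

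Apoa2 had 0.250, 0.380, 0.363 and 0.196 CPM at 10000 ppm, 0.526, 0.452, 0.478 and 0.492 at 1250 ppm and 0.5, 0.660 and 0.381 in the control. The 10000 ppm libraries were below those of both other groups, but neither difference passed (-0.72 ± 0.28, SE, adjusted p = 0.0847, and -0.80 ± 0.30, adjusted p = 0.138, by edgeR). Trf had 23.1, 23.4 and 13.7 CPM in the control and 23.5, 29.5, 25.3 and 35.2 CPM at 10000 ppm, all above the control, and the difference did not pass (0.50 ± 0.22, SE, edgeR adjusted p = 0.194). Against the control, 0 of 3 members were called at 2500 ppm, where 2 had an unadjusted p under 0.05 by edgeR and DESeq2 called 1. Of all 13338 genes, 0.487% were called there by edgeR and 2027 had an unadjusted p under 0.05. At 1250 ppm 0 of 3 were called, with 1 at an unadjusted p under 0.05 by edgeR and 0 called by DESeq2. Of all genes, 11.4% were called there by edgeR and 4069 had an unadjusted p under 0.05. The 5 genes most like Trf over the 17 adult libraries, by the same measure within groups over 9608 genes, were Rasa3 (r = 0.949), Flt3 (0.936), Gm2a (0.929), Thsd1 (0.923) and Trim62 (0.919). None of them is a hepatocyte gene of the lists used here.

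Other lists also moved between the adult groups. The erythroid genes summed to 8.25 to 48.8 CPM in the adult control, 11.7 to 50.8 at 1250 ppm and 30.3 to 731 CPM at 10000 ppm. The macrophage genes summed to 466 to 546, 208 to 289 and 162 to 494 CPM. The largest part of the sum was Vcam1, at a mean of 375 CPM in the control, 121 at 1250 ppm and 166 at 10000 ppm, differences that did not pass (edgeR adjusted p = 0.0536 and 0.199). Against the control, 6 of 10 macrophage genes were higher and 0 lower at 1250 ppm, beside 6.76% and 4.66% of all genes. At 10000 ppm 1 was higher and 0 lower, beside 0.952% and 0.315%. Cd5l had means of 0.14, 8.86 and 8.46 CPM in these 3 groups (adjusted p = 0.0202 and 0.0523 against the control). Between 10000 and 1250 ppm Cd5l did not pass (-0.07, adjusted p = 0.97). The part of these cells in the difference of Ambp was not tested. Among the 13 other hepatocyte genes tested, 0 were called at 10000 ppm against the control, beside 1.27% of all genes. Against 1250 ppm, 2 of the 13 were higher and 1 was lower, beside 7.53% and 10.6% of all genes. Apob (3.75 ± 0.88, SE, edgeR adjusted p = 0.0107) and F2, or prothrombin (2.08 ± 0.58, adjusted p = 0.0225), were the higher ones. Fah was the lower one (-1.59 ± 0.44, adjusted p = 0.0217).

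**Figure D5:**
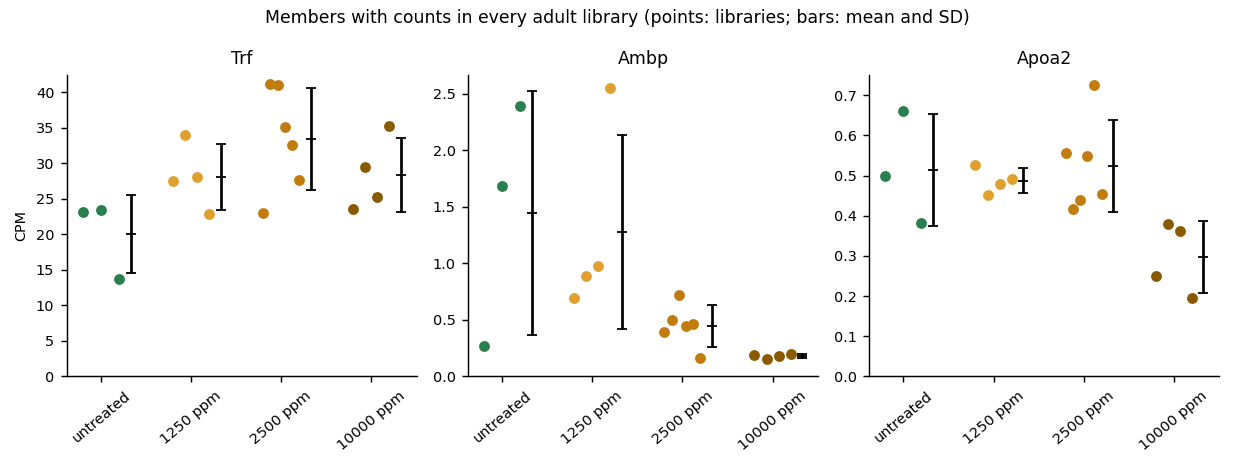
Trf, Ambp and Apoa2 in CPM in the 17 adult libraries by group (points are libraries, bars the mean and SD; linear axes from 0). Ambp lies between 0.158 and 0.196 CPM in the 4 libraries at 10000 ppm and between 0.696 and 2.55 CPM at 1250 ppm, while Trf overlaps between these 2 groups.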

How the data were processed

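Total RNA of sorted progenitors was sequenced after ribosomal depletion as paired reads on an Illumina NovaSeq, per the labels' protocols, and the authors mapped reads with HISAT2 2.1.0 to GRCm38, per the series' design text. The deposited values are raw whole-number counts per Ensembl gene. The counting tool, use of strand and annotation release are not given in the sources used here. Of 27728 IDs, 27668 had a GENCODE M21 symbol. The members and lists were chosen with earlier results of these data known. Counts were scaled by TMM, filtered with filterByExpr and compared in 8 contrasts with edgeR 4.0.16 (glmQLFit and glmQLFTest, the quasi-likelihood test), and p-values were adjusted over all genes by Benjamini-Hochberg (threshold 0.05). The script was tested on simulated data. Alternatives were RLE factors, DESeq2 1.42.0, filters on counts, a minimum log2 change of 1 in either direction, other libraries in the fit, a batch covariate, a replicate block, no scaling, a prior count of 0.5 and leaving out each replicate; flox control replicate 3 alone, sums without Trf and similarity without the flox control were chosen after seeing the data. Genes like the members are the 15 with the highest r (5 for Trf), with a mean of at least 50 counts. All 46 pairs of replicates differed beyond counting error (chi-square per degree of freedom 3.86 or more). Splicing was not analysed here. Outliers were sought in groups of 4 or more libraries.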

Additional observations from a re-analysis of the deposited data

Results flagged for a closer look

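In 28 groups of 4 to 10 libraries, the highest or lowest library's gap to its neighbour was set against Dixon's 95% limit, which chance passes in about 1 of 20 groups. It was passed 3 times. F12 had 0.0521 CPM in adult 2500 ppm replicate 2, from 3 counts, and 0 to 0.0171 CPM in the other 5 libraries. Ambp had 2.55 CPM in adult 1250 ppm replicate 5 and 0.696 to 0.974 CPM in the other 3. Apoa2 had 1.73 CPM in S34F replicate 4 and 0.970 to 1.10 CPM in the other 3.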

How the results depend on the processing

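Of 288 alternative values of the called members' fold changes, 266 stayed called in the same direction, 22 lost the call and 0 changed direction. These include members whose direction was fixed by the filter. They are Alb, Apoa1, Ttr, Apoh, F12 and Fgb between the flox control and the adult control, with 11 values each. F12 in the homozygous group adds 13 values against the flox control and 11 against the heterozygous group. For these an unchanged direction is no check. For the homozygous group against the flox control, 9 members were called whichever library was left out, and 6 to 9 under the other settings. The heterozygous group against the flox control gave 0 members, but 9 with no filter on low counts and 2 with DESeq2; leaving out a library gave 0 to 9. The homozygous against the heterozygous group gave 4, but 8 with no filter, 7 with only the compared groups and 7 with all 15 fetal libraries and a batch covariate; leaving out a library gave 1 to 5. The flox control against the adult control gave 7 to 8 throughout. At 10000 ppm against the control, the 1 call became 0 with a mean count of at least 50, which leaves Ambp out, and 0 with only the compared groups, and 0 to 1 without a library. Against 1250 ppm it became 0 with that same filter and was 1 without any library. At 2500 ppm DESeq2 called 1. Beyond the filter that drops Ambp, the cause was not tested.

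The replicate number as a block gave 1 member in place of 4 between the homozygous and heterozygous groups and 8 in place of 9 between the homozygous group and the flox control, and changed no other count of members in the comparisons in which it was run (the flox control and the adult control share only number 3). Same-numbered libraries correlated at -0.16 to 0.14 in the fetal and -0.27 to 0.52 in the adult groups, and 5 of 9 and 7 of 17 libraries correlated best with their own number.

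Counts over all genes ranged more widely: 1533 to 5957 (5194 as reported), 0 to 269 (4), 1439 to 6109 (5358), 2979 to 7838 (7231), 0 to 1057 (169), 0 to 569 (65), 68 to 3165 (1524) and 654 to 2983 (2420), in the order homozygous and heterozygous against the flox control, homozygous against heterozygous, flox control against adult control, then 10000, 2500 and 1250 ppm against the control and 10000 against 1250 ppm. In an adult library, 0 counts allow a level of up to 0.0429 to 0.0922 CPM (3 counts).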
